A study of Arabidopsis thaliana with 6 samples.

Results

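The alkenal reductase family around AER was examined in roots of Arabidopsis thaliana (ecotype Col-0) with and without gold. Its members were a fixed list of 10 loci, AER (AT5G16970) and 9 related genes described as zinc-binding dehydrogenases, out of 14265 genes that the probe annotation assigned to at least 1 probe set. All 10 loci were covered, by 10 probe sets: 9 loci had a probe set of their own, and AT5G17000 was covered by a probe set shared with AT5G16980. A probe set of a gene's own means here one that the annotation assigned to that gene alone. Plants were grown hydroponically for 14 days, and 3 jars received 0.125 mM KAuCl4, a soluble gold(III) salt, while 3 jars received no gold and are called untreated in the sample labels and water-treated in the series text. The exposure is given as 24 h in the sample labels and as 6 h in the treatment protocol, so its length is not settled here. Each of the 6 ATH1 microarrays came from a separate jar, and the jar was the replicate. The question was which members of the family differ in transcript amount after exposure to gold.

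Alkenal reductases use NADPH to saturate the carbon-carbon double bond next to the carbonyl group of reactive aldehydes and ketones. Such compounds form when membrane lipids are oxidised, and they attack proteins and glutathione. AER is the member best characterised as a 2-alkenal reductase in Arabidopsis. It belongs to the medium-chain dehydrogenase/reductase superfamily, many members of which bind zinc, although AER itself works without it. The other 9 loci are related by sequence, and no substrate is assigned to them here.

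By gene order, AT5G16960, AER, AT5G16980, AT5G16990 and AT5G17000 formed an uninterrupted row of 5 neighbouring protein-coding genes on chromosome 5. The other 5 members lay elsewhere, namely AT5G37980 on chromosome 5, AT3G03080 and AT3G59845 on chromosome 3, and AT1G26320 and AT1G65560 on chromosome 1. The shared probe set, 246465_at, was the only one of the 10 assigned to more than 1 gene. Probe sequences were not used here, so signal from close relatives within the row was not tested.

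The deposited values were on a log scale, read as log2, and each probe set had been centred on its median over the 6 arrays. A value of 0 is therefore the middle of that probe set's own 6 arrays and not an absence of transcript, and levels cannot be set in order between genes. The centring also places the middle values of each probe set at equal distances above and below 0. For no gold replicate 1 the control transcripts of actin and GAPDH had 5' minus 3' differences of -2.58 and -3.63 (centred log2), where the other 5 arrays ranged from -0.61 to 0.27. This array was the highest of its group for 8 of the 10 family probe sets and for 51.1% of all 22746 probe sets tested. Tissue identity could not be checked from centred values.

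With gold, AER rose strongly, and 2 other members rose slightly. The calls of these 2 were each lost under 6 of 11 alternative settings, which include leaving out each array. The test was limma's moderated test across all 22746 probe sets, with a Benjamini-Hochberg adjusted p below 0.05 as the threshold. By this test 3 of the 10 family probe sets (AER, AT1G65560 and AT5G16990) were higher with gold, beside 9.32% of all probe sets, and none was lower, beside 10.9%. At an unadjusted p below 0.05 in the limma fit, 6 were higher, beside 13.6% of all probe sets, and 0 were lower, beside 18.3%. The median change of the 10 probe sets was 0.63 on the log2 scale, against -0.04 over all probe sets. Marker genes of tissues differed between the same groups. Both root markers with a probe set of their own (2 of 7 listed), the root hair expansins EXPA7 and EXPA18, fell, with changes of -2.34 ± 0.354 and -2.36 ± 0.383 (limma adjusted p = 0.00305 and 0.00428). Their summed centred log2 values ran from 1.05 to 3.18 without gold and from -3.33 to -1.05 with it. Of the 2 shoot markers with a probe set of their own (of 15 listed), RCA, the Rubisco activase gene, fell by 1.49 ± 0.226 (limma adjusted p = 0.00305), and PRK was at -1.48 ± 0.492 and did not pass (limma adjusted p = 0.0737). The sum of these 2 ran from 1.00 to 3.37 without gold and from -1.51 to -0.57 with it. The part of these markers in the family's changes was not tested. In bulk roots, a change in the number of cells that express a gene and a change in transcript per cell cannot be told apart.

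AER, the 2-alkenal reductase gene itself, had centred log2 values of -1.18, -2.11 and -2.11 in no gold replicates 1, 2 and 3. In gold replicates 1, 2 and 3 its values were 1.18, 3.13 and 2.36. The groups did not overlap, and the gap between the highest no gold array and the lowest gold array was 2.35. AER rose by 4.02 ± 0.486 on the log2 scale (SE, n = 3 and 3), which is 16.2-fold (limma adjusted p = 0.00105). The spread among the gold arrays (SD 0.99) was wider than among the no gold arrays (SD 0.54), and both were smaller than the change. Its rise was number 163 in size among all probe sets tested. AER kept its call with each array left out, with changes from 3.56 to 4.54, and the quantile-normalised change was 3.35.

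**Figure D1:**
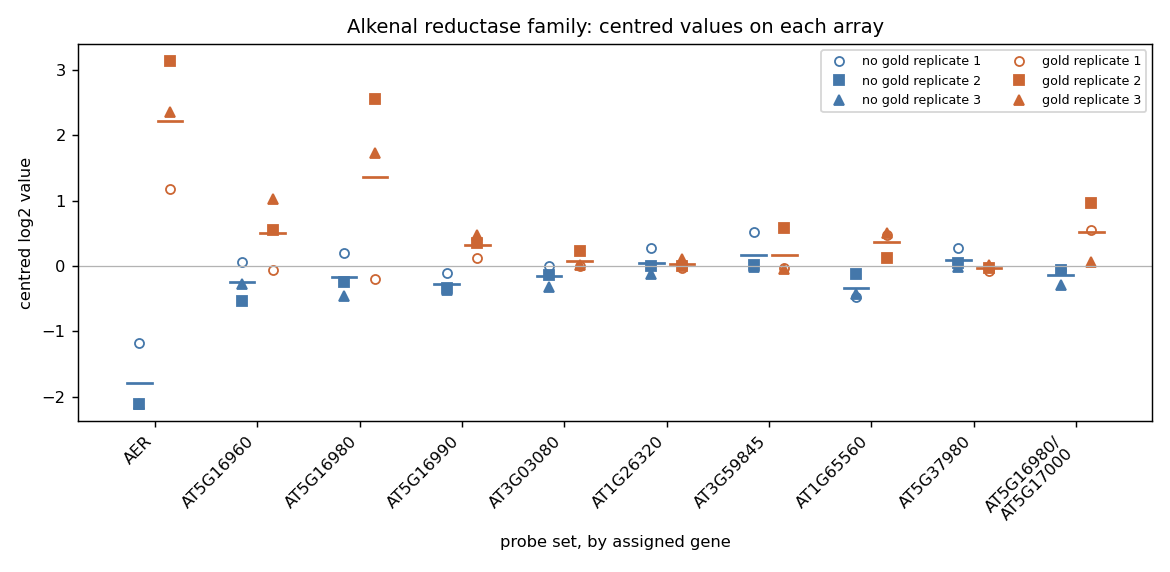
Centred log2 value (vertical axis) of each family probe set (horizontal axis) on each array, blue for no gold and orange for gold, with marker shape giving the replicate and a bar for the group mean; for AER the points of no gold replicates 2 and 3 coincide at -2.11. The AER arrays lie at or below -1.18 without gold and at or above 1.18 with it, and most other members stay close to 0 in both groups.

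The next gene in the row, AT5G16980, had the widest spread between the gold jars among the family probe sets (SD 1.41). Its values were 0.19, -0.25 and -0.47 in no gold replicates 1 to 3, and -0.19, 2.55 and 1.73 in gold replicates 1 to 3. Gold replicates 2 and 3 were far above every no gold array, while gold replicate 1 lay among them, so the groups overlapped. The change was 1.54 ± 0.617 (limma adjusted p = 0.13), with a 95% interval from 0.11 to 2.97. Without gold replicate 1 the change was 2.32 and passed the test (limma adjusted p = 0.00228), and without gold replicate 2 it was 0.95 (limma adjusted p = 0.34).

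The probe set shared by AT5G16980 and AT5G17000 gave another pattern. Its values were -0.06, -0.06 and -0.29 in no gold replicates 1 to 3, and 0.55, 0.97 and 0.06 in gold replicates 1 to 3. The groups did not overlap, but here gold replicate 3 was the lowest gold array and gold replicate 1 lay above the no gold arrays. Its change of 0.66 ± 0.238 did not pass (limma adjusted p = 0.095), but it passed under quantile normalization, at 0.73 (limma adjusted p = 0.0499), and without gold replicate 3, at 0.89 (limma adjusted p = 0.0468). AT5G17000 had no other assigned probe set, so its own change could not be separated from that of AT5G16980.

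AT5G16990, the gene between AT5G16980 and AT5G17000, rose slightly. Its values were -0.12, -0.34 and -0.37 in no gold replicates 1 to 3, and 0.12, 0.36 and 0.48 in gold replicates 1 to 3. The groups were separated by a gap of 0.23. The rise was 0.59 ± 0.166, or 1.51-fold (limma adjusted p = 0.0417). This call was lost without replicate 2 or 3 of either group (limma adjusted p from 0.111 to 0.175), while the change stayed between 0.51 and 0.69.

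AT5G16960, on the other side of AER, had values of 0.06, -0.53 and -0.27 in no gold replicates 1 to 3 and of -0.06, 0.55 and 1.02 in gold replicates 1 to 3. As with AT5G16980, gold replicate 1 lay within the no gold range and the other gold arrays lay above it. The change was 0.75 ± 0.291 and did not pass (limma adjusted p = 0.119). It passed without gold replicate 1, at 1.03 (limma adjusted p = 0.0253), and without any other single array it did not.

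Gold replicate 1 was the lowest of the 3 gold arrays for 7 of the 10 family probe sets, whether or not they passed the test. The same array was the lowest gold array for 75.7% of all 2121 probe sets called higher with gold and for 37.1% of all probe sets tested. Of the 3 members called higher, AER and AT5G16990 had their lowest gold value in this jar and AT1G65560 did not.

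**Figure D2:**
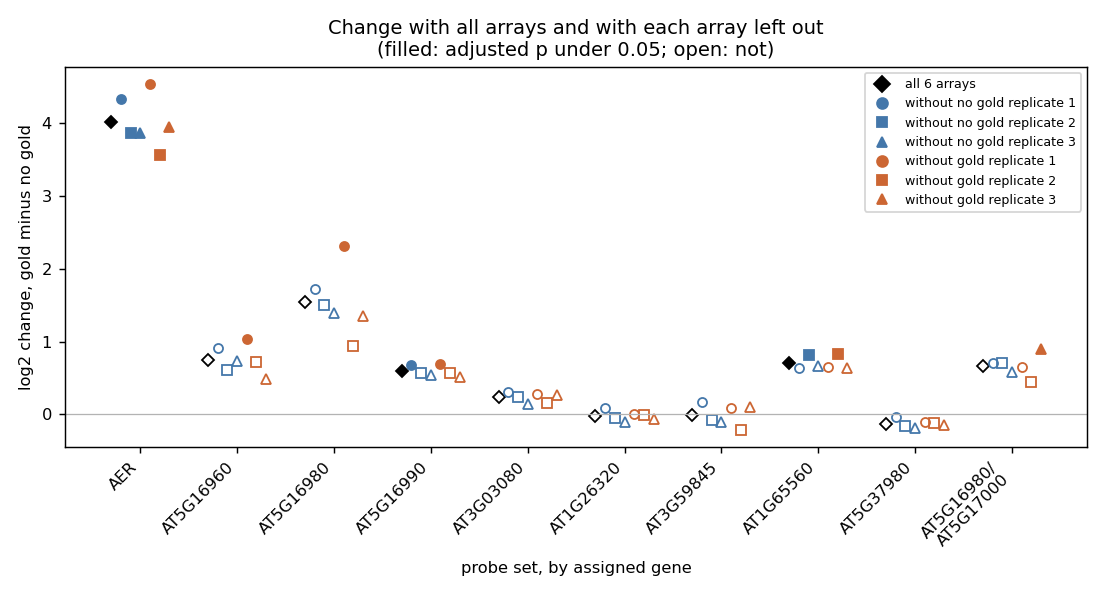
Log2 change, gold minus no gold (vertical axis), of each family probe set (horizontal axis) with all 6 arrays (black diamond) and with each array left out (blue for a no gold array, orange for a gold array), filled where the limma adjusted p is below 0.05 and open where it is not. AER is filled at all 7 points, from 3.56 to 4.54, whereas AT5G16980 and AT5G16960 are filled only without gold replicate 1.

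Outside the row, AT1G65560 was the only member that passed the test. Its values were -0.48, -0.12 and -0.43 in no gold replicates 1 to 3, and 0.47, 0.12 and 0.50 in gold replicates 1 to 3. The groups were apart, and gold replicate 2, the highest gold array for AER, was the lowest for AT1G65560. The rise was 0.71 ± 0.181, or 1.63-fold (limma adjusted p = 0.0292). It was between 0.64 and 0.83 with single arrays left out, and the call was lost when no gold replicate 1 or 3 (limma adjusted p = 0.053 and 0.0994) or gold replicate 1 or 3 (0.071 and 0.132) was left out.

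The remaining 4 members, AT3G03080, AT1G26320, AT3G59845 and AT5G37980, did not pass the test, and their groups overlapped. AT3G03080 was at 0.23 ± 0.162 (limma adjusted p = 0.393), with a 95% interval of the change from -0.14 to 0.61. Its values were 0.00, -0.14 and -0.33 without gold and 0.00, 0.23 and 0.01 with gold, in replicate order. Replicate 1 of each group held the middle values, which lie on either side of 0 because of the centring. The other no gold values lay below them and the other gold values above.

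AT1G26320 had values of 0.27, 0.00 and -0.12 without gold and of -0.03, 0.00 and 0.11 with gold. Its change was -0.02 ± 0.163, with a 95% interval from -0.40 to 0.35. AT5G37980 had values of 0.27, 0.04 and -0.02 without gold and of -0.08, -0.04 and 0.02 with gold, and its change was -0.13 ± 0.152, with an interval from -0.48 to 0.22. In both genes no gold replicate 1 was the highest of the 6 arrays.

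AT3G59845 had values of 0.52, 0.02 and -0.02 without gold and of -0.03, 0.58 and -0.05 with gold. One array of each group, no gold replicate 1 and gold replicate 2, stood above the other 4. The change was -0.01 ± 0.236, with an interval from -0.55 to 0.54. For these 4 genes the intervals do not include a rise as large as that of AER, whose own interval ran from 2.89 to 5.15.

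**Figure D3:**
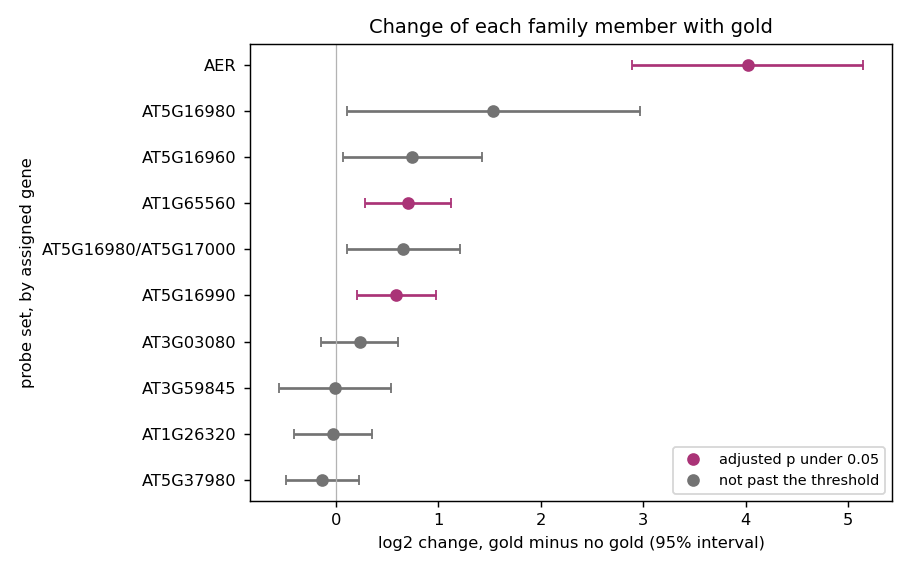
Log2 change, gold minus no gold, of each family probe set with its 95% interval from the limma fit (horizontal axis), ordered by size (vertical axis), in purple where the adjusted p is below 0.05. The estimate for AER, 4.02, lies above those of the other 9 probe sets, which range from -0.13 to 1.54. Its interval overlaps that of AT5G16980.

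Of the 10 probe sets, 4 had gold values wholly above the no gold values (AER, AT5G16990, AT1G65560 and the shared probe set), where 15.6% of all probe sets did, and 6 overlapped. None had gold values wholly below, where 21.6% of all probe sets did, so that in either direction 4 of 10 were free of overlap beside 37.2% of all probe sets. Within the row, the 4 own probe sets had positive changes with a median of 1.14, and the 5 members elsewhere had a median of -0.01. The row median falls between AT5G16980 and AT5G16960, neither of which passed (limma adjusted p = 0.13 and 0.119). Signal from close relatives within the row was not tested. Ordered by change, AER came first, followed by AT5G16980, AT5G16960, AT1G65560, the shared probe set, AT5G16990 and AT3G03080, and then by AT3G59845, AT1G26320 and AT5G37980 with negative values. The 95% intervals of neighbours in this order overlapped, at the top as well, where those of AER and AT5G16980 met between 2.89 and 2.97.

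To compare AER with each other member directly, the difference between the 2 probe sets was taken within each array. This removes an offset common to an array but not a difference in scale. The SD over all probe sets ran from 0.371 in gold replicate 1 to 0.717 in gold replicate 2. The change of AER exceeded that of AT5G16980 by 2.48, with within-array differences (AER minus AT5G16980) from 0.59 to 1.37 with gold and from -1.86 to -1.37 without. It exceeded that of AT5G16960 by 3.27, that of AT5G16990 by 3.43, that of AT1G65560 by 3.31 and that of the shared probe set by 3.36. For AT3G03080, AT3G59845, AT1G26320 and AT5G37980 the excess was 3.79, 4.03, 4.04 and 4.15. In each of the 9 pairs the gold and no gold differences did not overlap. All 9 pairs used the same AER values, whose own groups were 2.35 apart, so they are not 9 separate results. The two-sided exact permutation p was 0.1 in every pair, also after adjustment over the 9 pairs, and 0.1 is the smallest that 3 against 3 arrays can give, so this design cannot pass 0.05.

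The genes whose 6 centred values were nearest to those of AER were sought among 13355 other genes with a probe set of their own, by the root mean square difference over the 6 arrays. The nearest was AT4G28085, at a root mean square difference of 0.222 on the log2 scale, with a change of 4.42 with gold. AT5G64870, a flotillin gene of membrane microdomains, followed at 0.249, with a change of 4.35. AT1G61550, of the lectin receptor kinase type, was at 0.27, with a change of 3.59. AT2G22880, of the VQ motif family, was at 0.324, with a change of 4.35, and the glucosyltransferase gene UGT73C7 came next at 0.336, with a change of 3.93.

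As in AER, no gold replicate 1 was the highest no gold array of these 5 genes. Gold replicate 1 was their lowest gold array. The 5 genes were chosen for closeness to AER on the same arrays. Their shared array order is therefore largely set by that choice and is no separate likeness. Of all probe sets called higher with gold, 43.9% had no gold replicate 1 highest and 75.7% had gold replicate 1 lowest within its group. The family members were much farther from AER. AT5G16980 was the closest of them, as number 454 at 1.33, and AT5G37980 the farthest, as number 7306 at 2.17. The measure weighs the size of a change as well as its shape, so small changes lie far from AER by construction.

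**Figure D4:**
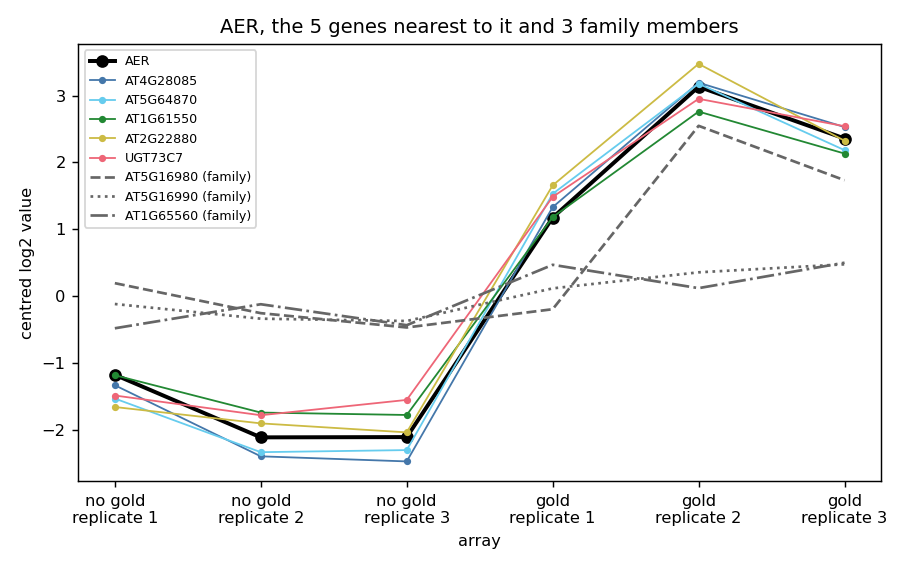
Centred log2 values (vertical axis) on the 6 arrays (horizontal axis) of AER (black), the 5 genes nearest to it (coloured) and 3 family members (grey, broken lines); lines join the arrays of a gene only to guide the eye. The 5 nearest genes follow AER within a root mean square difference of 0.336, while AT5G16980 lies below AER on each gold array and leaves the no gold range only in gold replicates 2 and 3, and AT5G16990 and AT1G65560 stay between -0.48 and 0.50.

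Other genes that handle aldehydes were called in numbers near the shares over all probe sets. The lists held 48 genes, of which 13 had a probe set of their own. Of these, 1 was higher, beside 9.32% of all probe sets, and 2 were lower, beside 10.9%. The other 10 did not pass, and the median change was -0.13. Of all probe sets, 20.2% passed in either direction, so the counts do not set these lists apart. No member of the lists for aldo-keto reductases of subfamily 4C, cinnamyl and other zinc alcohol dehydrogenases or the lipoxygenase pathway had a probe set of its own, so these were not analysed here.

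Among 8 aldehyde dehydrogenases, which oxidise aldehydes to acids where AER reduces the double bond, 1 rose, 1 fell and 6 did not pass. ALDH7B4, a stress-inducible aldehyde dehydrogenase, had values of -0.77, -1.21 and -0.47 without gold and of 0.47, 0.67 and 0.84 with gold. The groups were well apart, and the rise was 1.48 ± 0.219 (limma adjusted p = 0.00278), smaller than that of AER. ALDH3F1, of the family 3 aldehyde dehydrogenases, had values of 0.11, 0.45 and 0.14 without gold and of -0.11, -0.70 and -0.61 with gold. It fell by 0.71 ± 0.206 (limma adjusted p = 0.0467), a call that was lost with any single array but gold replicate 1 left out (limma adjusted p from 0.052 to 0.175) and with array median centring (0.0616). The other 6, ALDH2C4, ALDH10A8, ALDH10A9, ALDH11A3, ALDH6B2 and ALDH22A1, lay between -0.43 and 0.18.

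Of 5 other carbonyl and enone reductases, AOR was lower and 4 did not pass. AOR encodes the chloroplast enzyme that, like AER, reduces the double bond of alkenals and enones. Its values were 1.06, 0.23 and 0.39 without gold and -0.31, -0.61 and -0.23 with gold, and the groups did not overlap. It fell by 0.95 ± 0.242 (limma adjusted p = 0.0292), and the call was lost when no gold replicate 3 or any 1 of the gold arrays was left out (limma adjusted p from 0.0502 to 0.095). The shoot marker RCA fell as well, PRK had a negative change that did not pass, and the root markers EXPA7 and EXPA18 fell, with the values given above, and their part in the AOR result was not tested. The quinone reductase gene NQR (AT3G27890) was at -0.46 ± 0.168 (limma adjusted p = 0.101), and NQR (AT1G49670), AT4G13010 and AT5G61510 lay between 0.11 and 0.30.

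**Figure D5:**
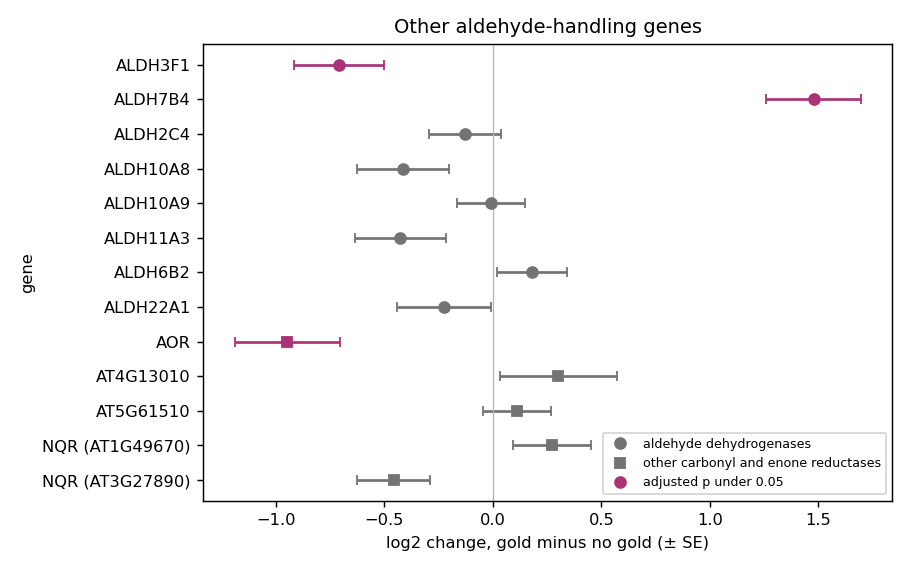
Log2 change, gold minus no gold, with its standard error (horizontal axis) of 13 other aldehyde-handling genes (vertical axis), circles for aldehyde dehydrogenases and squares for other carbonyl and enone reductases, in purple where the limma adjusted p is below 0.05. ALDH7B4 at 1.48 lies to the right, AOR at -0.95 and ALDH3F1 at -0.71 lie to the left, and the rest are within 0.46 of 0.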

How the data were processed

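The authors deposited log2 values (base read as 2, not stated) of 22810 probe sets on 6 arrays, with each row centred on its median, as the values show. How probes were summarised and scaled is not stated in the labels or headers. Centring removes levels, so dim probe sets could not be filtered. Without the 64 control probe sets, 22746 were fitted with limma 3.58.1 in R 4.3.3 (lmFit, eBayes), gold minus no gold, with Benjamini-Hochberg adjustment over all of them. GEO's platform annotation named 1 gene for 13513 of them, several for 503 and none here for 8730. Loci and gene order came from the TAIR10.1 gene table, matched by gene ID. For genes with several probe sets, the one without a suffix for shared sequence, then the lowest ID, was used. Control transcripts were averaged over 2 probe sets per end. The number of arrays limits the precision. Named were all members, the list genes past the threshold, and the 5 genes nearest AER. The members and lists were chosen with earlier results of these data known. The fit was tested on data simulated with the residual spread of the real probe sets. It called 35 of 100 changes of 1 on the log2 scale and 83 of 100 changes of 2. Of 22546 unchanged probe sets it called 11. Most simulated probe sets were unchanged, whereas 4601 of 22746 passed in the real fit, so the Benjamini-Hochberg cutoff was stricter in the simulation. These shares therefore do not give the power of the real fit. A member that did not pass is not shown to be unchanged. Python 3.11.15, scipy 1.17.1 and matplotlib 3.10.9 served for exact tests and figures. Alternatives were array median centring, quantile normalization, the replicate block, robust empirical Bayes, an ordinary test (equal variance, no pooling of the spread) and each array left out.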

Additional observations from a re-analysis of the deposited data

How the results depend on the processing

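AER passed under all 11 alternatives (limma adjusted p from 0.000142 to 0.00852 for the limma fits, and 0.0454 with the ordinary test of each probe set by itself), with changes from 3.35 to 4.54. With the ordinary test AER was the only member called higher (1 of 10), as it was with the replicate block (1), and across all probe sets the ordinary test gave 922 higher and 1015 lower. That test does not pool the spread. With the replicate block AT5G16990 had limma adjusted p = 0.107 and AT1G65560 0.0811. Deviations from the group mean correlated at -0.11, -0.25 and 0.28 between arrays of replicate number 1, 2 and 3, so the numbers were not used as pairs. Leaving out each array gave 1 to 4 members higher and 0 lower (0 lower at an unadjusted p below 0.05 as well under each alternative, where 3134 to 4602 of all 22746 probe sets were), the fewest without no gold replicate 3. It gave 1262 to 2432 probe sets higher and 1258 to 2717 lower, the fewest of both without gold replicate 3. The aldehyde-handling genes called lower numbered 2, and 1 with array median centring, 1 with the replicate block, 0 with the ordinary test (3 at an unadjusted p below 0.05) and 0 to 2 with arrays left out (2 to 4 unadjusted), with 0 without replicate 2 or 3 of the gold group or replicate 3 of the other. The cause was not tested. ALDH10A8 passed without no gold replicate 1 (limma adjusted p = 0.0395). No called change reversed. The excess of AER over each other member stayed positive under quantile normalization and with each array left out. Array median centring cannot change a difference taken within an array, so it is no check here. Averaging over probe sets of 1 gene was not run, as no member had more than 1 of its own. Centred values leave signal over background unknown.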

Other observations

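Genes next to the family were examined after the members' values were seen, as the 5 nearest protein-coding genes on each side by gene order. Around the row that holds AER, 9 of 10 flanking genes had a probe set of their own, and their changes lay between -0.76 and 1.07, all smaller in size than that of AER. Of these 9, 1 was higher and 3 were lower, beside 9.32% and 10.9% of all probe sets. Whether calls were more frequent near the family was not tested. CSLD2, a cellulose synthase-like gene needed for root hair growth, rose by 1.07 ± 0.228 (limma adjusted p = 0.0143). UGT78D2, a flavonoid glucosyltransferase gene, fell by 0.76 ± 0.173 (0.0186), AT5G16940 fell by 0.74 ± 0.15 (0.0113) and AT5G17040 fell by 0.55 ± 0.162 (0.0481). AT5G16950, the gene just outside the row next to AT5G16960, was at -0.45 ± 0.305, and AT5G17010, just outside it on the other side, was at 0.18 ± 0.208, and neither passed.

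Beside AT1G65560, 3 of 10 flanking genes had a probe set of their own, of which 0 were higher and 1 was lower. The adjacent gene AT1G65570 had centred log2 values of 1.48, 1.81 and 1.79 in no gold replicates 1 to 3 and of -1.48, -1.85 and -1.77 in gold replicates 1 to 3. It fell by 3.39 ± 0.176 (limma adjusted p = 3.09e-05), opposite to the rise of 0.71 in AT1G65560. Around AT5G37980, whose change was -0.13, 6 of 10 flanking genes had a probe set of their own, of which 1 was higher and 1 was lower. Of these, AT5G38020 rose by 1.81 ± 0.415 (0.019), with no overlap of the groups, and AT5G38030 fell by 0.86 ± 0.178 (0.0123).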
